A study of Mus musculus with 8 samples.

Results

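The nuclear-encoded subunits of the respiratory chain and ATP synthase were represented by 85 of the 31815 genes in the deposited count table. A gene was included when its symbol began with Nduf, Uqcr, Cox4, Cox5, Cox6, Cox7, Cox8 or Atp5, or was Sdha, Sdhb, Sdhc or Sdhd, and when its counts summed to at least 800 over the 8 libraries. Symbols with -ps or beginning with Gm were left out. The rule used no fold change, although it was chosen with earlier results of these data known. The 85 genes comprised 36 subunits of complex I, 8 complex I assembly factors that share the Nduf prefix, 4 subunits of complex II, 8 of complex III, 12 of complex IV and 17 of complex V. RNA sequencing had been run on splenic CD8 T cells of OT-I mice (C57BL/6-Tg(TcraTcrb)1100Mjb/J), whose receptor transgenes recognise an ovalbumin peptide. The cells were naive when isolated, were stimulated with the peptide for 3 days, were transduced with TOXFL or TOXdeltaN linked to GFP by an internal ribosome entry site 24 h after culture began, and were sorted on day 5. The 4 groups were TOXFL-positive and TOXdeltaN-positive cells, each the top 20% of GFP-positive cells, and the TOXFL-negative and TOXdeltaN-negative GFP-negative cells of the same kinds of culture, with 2 libraries each. All 4 groups shared the OT-I genotype, the peptide and the exposure to a vector. Cells carrying a vector for GFP alone were not analysed here, so TOX, GFP and carriage of a vector cannot be told apart.

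The respiratory chain sits in the inner mitochondrial membrane. Complexes I and II feed electrons from NADH and succinate to coenzyme Q, complex III passes them to cytochrome c, complex IV reduces oxygen, and complex V uses the resulting proton gradient to make ATP. Most subunits are encoded in the nucleus and imported, while a small set, including the catalytic core of complex IV, is encoded in mitochondrial DNA. CD8 T cells that leave the naive state for division raise both glycolysis and mitochondrial content, and loss of mitochondrial function is one of the features described for exhausted T cells, in which the transcription factor TOX is abundant.

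Library totals lay between 25059112 and 31240067 counts, with 16577 to 16943 genes detected. Tox had 105 and 126 CPM (counts scaled to a common library size with TMM factors) in TOXFL-positive cells against 25.1 and 34.4 CPM in TOXFL-negative cells, and 107 and 82.9 CPM in TOXdeltaN-positive cells against 21.8 and 32.2 CPM in TOXdeltaN-negative cells. The CD8 T cell markers Cd3d, Cd3e, Cd3g, Cd8a and Cd8b1 summed to between 3098 and 3505 unscaled CPM in every library, whereas CD4 T cell, NK cell, erythroid and myeloid marker lists each summed to 4.32 CPM or less, with Adgre1 and Siglech at 0, and B cell markers to 17.3 CPM or less. In such bulk samples, fewer cells of a type and less RNA per cell cannot be told apart. The labels do not say whether replicates came from separate animals or cultures, so p-values measure the spread between these libraries. The TOXdeltaN-positive replicate 2 library stood apart from the other 7. It gave 1.74% of its counts to the 85 genes, compared with 1.32% to 1.48% in the other libraries, and 4.14% to ribosomal protein genes, compared with 2.83% to 3.43%. The part of this in the results was not tested.

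The respiratory chain genes were abundant. Per kilobase of 1 annotated principal transcript, their median was 141 CPM, compared with 9.14 CPM per kilobase over all tested genes, and 65 of the 85 lay above the 90th percentile of all tested genes. Complex IV subunits had a median of 283 CPM per kilobase, complex V subunits 241, complex III subunits 199.7, complex II subunits 166, complex I subunits 115 and the complex I assembly factors 16.9. The highest was Atp5b, the catalytic beta subunit of the ATP synthase F1 part, at 862 CPM per kilobase. It was followed by Atp5g3, which encodes the membrane rotor subunit c, at 469 CPM per kilobase, and by Cox4i1, a regulatory subunit of complex IV, at 460.0. The lowest was the complex I assembly factor Ndufaf4 at 7.08 CPM per kilobase. The annotated transcript was long for some genes with a small coding part (4715 bases for Atp5g1 and 3479 for Ndufab1), and their levels per kilobase depend on it.

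The members with the fewest counts were Ndufaf2 (2797 over the 8 libraries), Ndufaf5 (3094) and Ndufaf6 (3920). Just under the limit of 800 was Cox6b2, the testis form of a complex IV subunit, with a summed count of 733, followed by a second Atp5o identifier with 249 and Cox7a1, the heart and muscle form of subunit 7a, with 119. Other tissue forms were near or at 0, with Cox6a2 at 41, Cox8c at 3, Cox4i2 at 1, and Cox8b, Cox7b2 and Ndufa4l2 at 0. Cox6b2 and Cox7a1 were detected in every library. Cox6b2 had 102 and 152 counts in TOXFL-positive cells against 36 and 69 counts in TOXFL-negative cells, and 128 and 160 counts in TOXdeltaN-positive cells against 22 and 64 counts in TOXdeltaN-negative cells. Cox7a1 had 17 and 28 counts in TOXFL-positive cells against 6 and 4 counts in TOXFL-negative cells, and 27 and 19 counts in TOXdeltaN-positive cells against 9 and 9 counts in TOXdeltaN-negative cells. The raw counts of both were higher in all 4 GFP-positive libraries, an order that 8.22% of all tested genes had on TMM-scaled CPM. The second Atp5o identifier and Cox6a2 did not have it. Test results for Cox6b2 and Cox7a1 are not reported here. The forms above the limit were Cox4i1, Cox6a1, Cox6b1, Cox7a2 and Cox8a.

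Nuclear respiratory factor 1 (NRF1) is a transcription factor known for binding promoters of many respiratory chain genes, so the letters of its core motif were searched in RefSeq promoters (GRCm38.p6), from 250 bases before to 50 after the gene start. The promoter table matched 72 of the 85 genes. The NRF1 letters (GCGC, any 2 bases, GCGC), which read the same on both strands, occurred in 21 of the 72 (29.2%), compared with 6.997% of 27025 genes with a promoter of this length. These 27025 genes were not limited to those tested here, and a comparison with genes of like expression was not made. The YY1 letters (AA, any base, ATGGCGG), searched on both strands, occurred in 7 members (9.72%, against 1.59% of all), and the ETS letters CCGGAAGT that GABPA can bind in 5 (6.94%, against 4.31%). The CCAAT box occurred in 43.1% of members and 41.1% of all, the GC box GGGCGG in 45.8% and 38.2%, and TATAAA in 8.33% and 15.7%. Overlaps between motifs were not removed. By complex, the NRF1 letters were found in 9 of 32 promoters of complex I subunits, 2 of 7 of its assembly factors, 2 of 3 of complex II, 1 of 5 of complex III, 1 of 10 of complex IV and 6 of 15 of complex V. Upstream sequences of 3 genes with different behaviour between GFP-positive and GFP-negative cells are shown, cut where the GENCODE gene begins, with NRF1 letters in capitals. Ndufab1 encodes the mitochondrial acyl carrier protein bound to complex I (chr7:122101887-122102098, minus strand), Sdha the flavoprotein of complex II (chr13:74350281-74350490, minus strand), and Cox7a2 a small complex IV subunit (chr9:79759879-79760103, minus strand).
Ndufab1: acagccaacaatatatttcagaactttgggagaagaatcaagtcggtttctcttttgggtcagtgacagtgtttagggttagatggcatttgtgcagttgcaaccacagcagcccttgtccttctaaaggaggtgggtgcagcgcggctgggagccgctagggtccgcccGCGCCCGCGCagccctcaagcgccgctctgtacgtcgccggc
Sdha: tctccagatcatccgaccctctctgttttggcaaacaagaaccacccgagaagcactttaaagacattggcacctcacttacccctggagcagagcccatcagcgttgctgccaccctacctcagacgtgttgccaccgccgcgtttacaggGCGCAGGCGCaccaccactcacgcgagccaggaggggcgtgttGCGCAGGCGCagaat
Cox7a2: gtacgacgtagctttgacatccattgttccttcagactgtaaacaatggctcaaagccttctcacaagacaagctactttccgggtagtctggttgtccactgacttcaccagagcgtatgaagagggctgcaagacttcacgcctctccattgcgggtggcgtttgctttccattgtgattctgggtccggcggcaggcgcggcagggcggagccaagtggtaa
The Ndufab1 stretch held 1 NRF1 match, the Sdha stretch 2 and the Cox7a2 stretch none. A match is a description of letters, not a bound site.

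Between GFP-positive and GFP-negative cells, no respiratory chain gene passed the main test, while most fold changes were small and above 0. Averaged over both constructs, 81 of 85 genes (59 after the transcript-length correction described with the length values) had a fold change above 0 on the log2 scale, with a median of 0.152 for the 85, compared with -0.000522 over 13329 tested genes. With edgeR's quasi-likelihood test, no member reached an adjusted p under 0.05 in this comparison, in which 2.42% of all genes were called, and the lowest adjusted p was 0.0845 for Ndufc1. Unadjusted, 30 of the 85 (35.3%) were under 0.05, compared with 21.9% of all genes. Libraries with the same replicate number deviated together over all tested genes (correlations of 0.152 to 0.228 in the 6 pairs of groups), so a blocked fit, in which each number had its own term, was also made. Over the 85 genes alone the correlations were 0.276 and 0.36 in 2 pairs of groups and between -0.0723 and 0.0201 in the other 4. It called 12 members higher and none lower while 6.04% of all genes were called higher. The 12 were Ndufa12, Ndufb6, Ndufb7, Ndufb8, Ndufc1, Ndufs3, Ndufv1 and Ndufaf2 of complex I and its assembly, Uqcr10 and Uqcrq of complex III, Cox7a2 of complex IV and Atp5o of complex V. DESeq2 without the block called 6 of them higher, with 3.71% of all genes called higher, and these were Cox7a2, Uqcrq, Uqcr10, Ndufc1, Ndufb7 and Ndufb6.

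**Figure D1:**
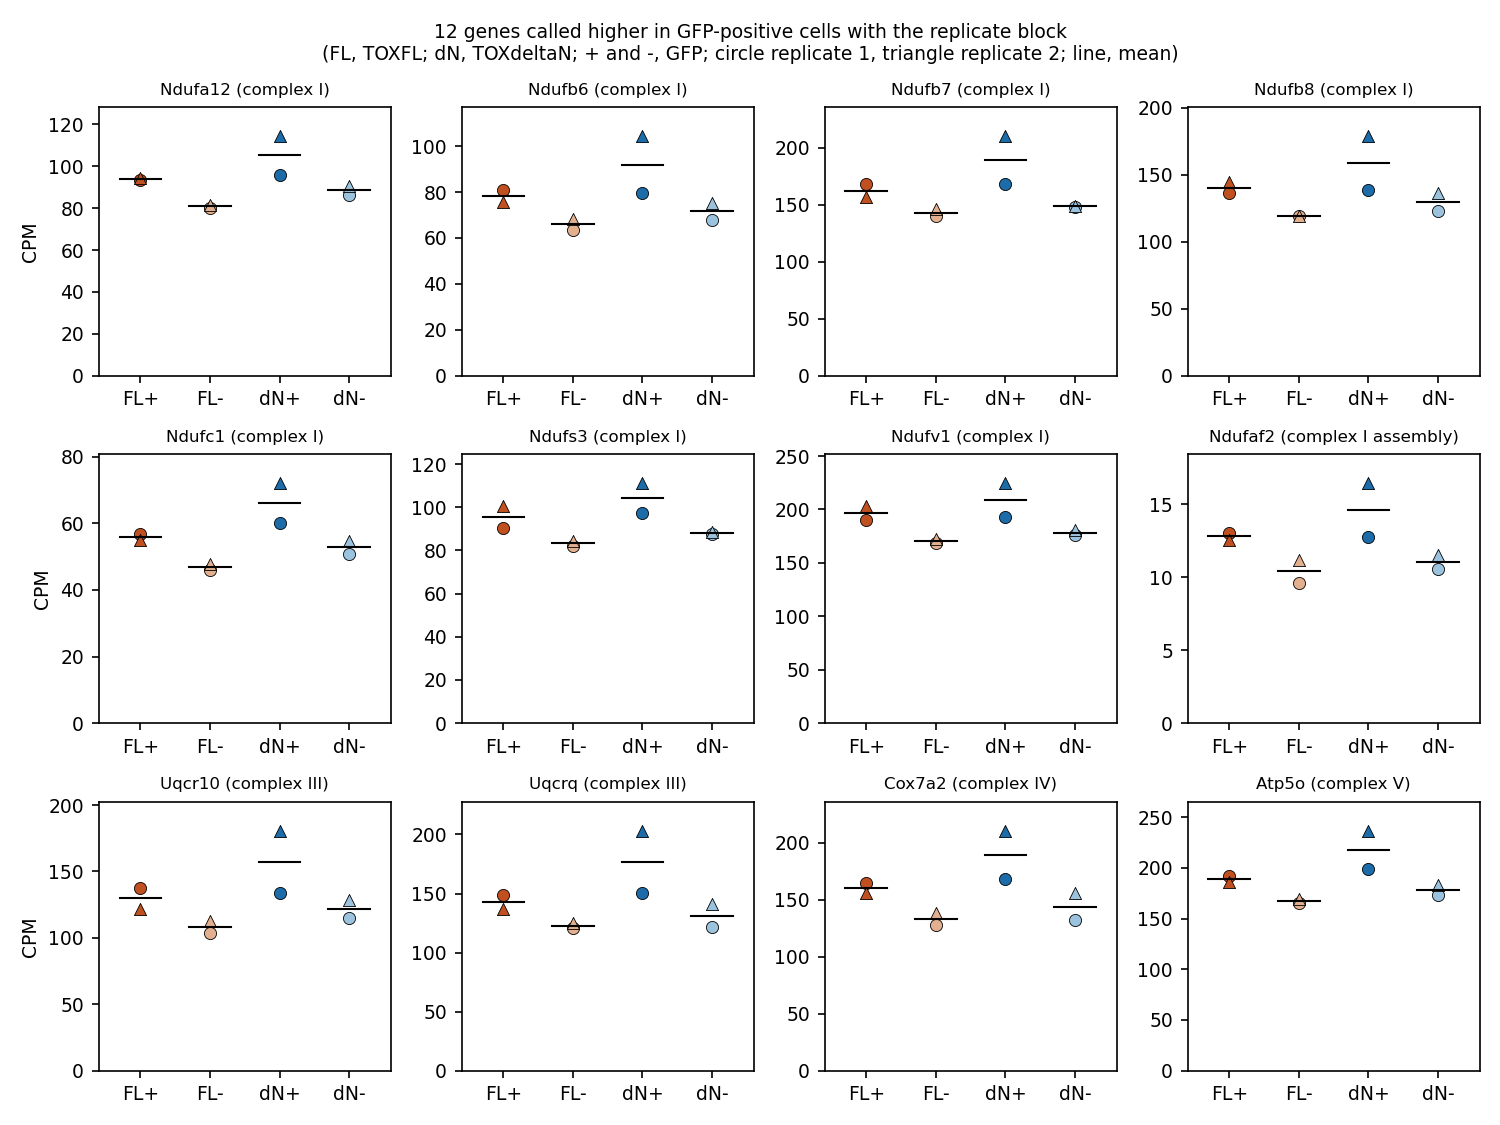
TMM-scaled CPM (vertical axes, starting at 0) of the 12 genes called higher in GFP-positive cells in the blocked edgeR fit, by group (FL, TOXFL; dN, TOXdeltaN; + and -, GFP status), with a point per library and a line at the mean of 2 libraries. The triangle of TOXdeltaN-positive replicate 2 is the highest point in every panel.

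Within TOXFL cultures the median log2 fold change of the 85 genes was 0.0897, with 72 above 0, and within TOXdeltaN cultures 0.218, with 83 above 0. Without TOXFL-positive replicate 1 the TOXFL median was 0.0364, and -0.0141 with the block, and without TOXFL-positive replicate 2 it was 0.136, and 0.2001 with the block, so 1 library reversed its direction in the blocked fit. By comparison, the medians over all genes were -0.00302 with TOXFL and 0.00544 with TOXdeltaN. No member was called in the TOXFL comparison, where edgeR called 0.045% of all genes, or in the TOXdeltaN comparison, where it called 0.03%. Unadjusted p was under 0.05 for 1 member (1.18%) with TOXFL and 29 (34.1%) with TOXdeltaN, compared with 13.4% and 12.2% of all genes. DESeq2 called no member in either comparison. The blocked fit also called no member, while it called 3.48% of all genes with TOXFL and 1.65% with TOXdeltaN. The 2 GFP-positive libraries lay above both GFP-negative libraries for 39 members with TOXFL (24.9% of all genes did so) and for 57 with TOXdeltaN (21.1% of all genes). In both constructs at once this held for 27 members (11.4% of all genes). The 4 GFP-positive libraries lay above all 4 GFP-negative libraries for 18 members (8.22% of all genes). Of these, 13 were in complex I or its assembly, which hold 36 and 8 of the 85 genes.

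One library carried much of this difference. TOXdeltaN-positive replicate 2 was the highest of the 8 libraries for 83 of the 85 genes, with Sdha and Ndufs1 as the exceptions, and its median log2 deviation from the mean of the 8 was 0.303. The other GFP-positive libraries had medians of 0.019 (TOXFL-positive replicate 1), -0.0873 (TOXFL-positive replicate 2) and 0.0589 (TOXdeltaN-positive replicate 1), against -0.142, -0.0904, -0.0698 and 0.0131 in the GFP-negative libraries. Leaving out 1 library leaves its group with 1 library, so the spread comes from the other groups alone. Without TOXdeltaN-positive replicate 1, the library that remains is TOXdeltaN-positive replicate 2, which stood apart. Counts of called members from such fits are a description and not evidence of a difference. Without TOXdeltaN-positive replicate 2 the median fold change became 0.0858 with TOXdeltaN and 0.0926 for the mean of both constructs, with 76 and 78 genes above 0, and the blocked fit called 11 members higher with 6.95% of all genes. Without TOXdeltaN-positive replicate 1 instead, the unblocked test called 31 members higher with TOXdeltaN (4.1% of all genes) and 34 for the mean of both constructs (7.68%), and the blocked fit called 60 for that mean (11.8%). Without TOXFL-positive replicate 2 the blocked fit called 10 (3.62%), and it called none when any of the other 5 libraries was left out. Within single constructs the blocked fit without TOXdeltaN-positive replicate 1 called 55 members higher with TOXdeltaN (7.77% of all genes) and 7 with TOXFL (5.79%), and without TOXdeltaN-positive replicate 2 it called 7 with TOXFL (5.61%) and none with TOXdeltaN.

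**Figure D2:**
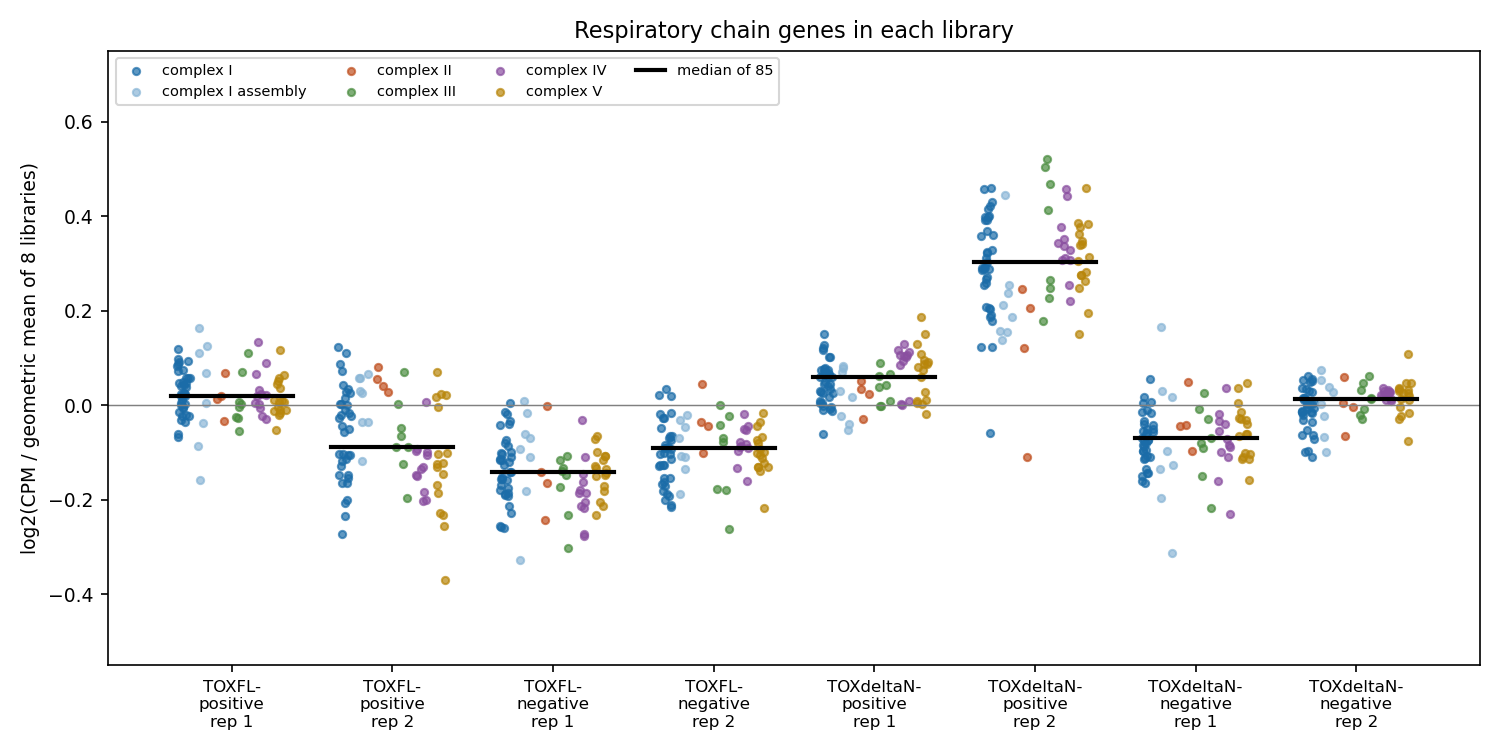
Log2 ratio of each gene's CPM to its geometric mean over the 8 libraries (vertical axis) in each library, with 1 point per gene coloured by complex and a bar at the median of the 85. TOXdeltaN-positive replicate 2 has a median of 0.303, and the other 7 libraries have medians between -0.142 and 0.0589.

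Fold changes also moved with transcript length. The principal transcripts of the 85 genes had a median of 908 bases. Among tested genes under 1000 bases, the median log2 fold change was 0.173 with TOXdeltaN and 0.025 with TOXFL, while the 46 members of this length had medians of 0.254 and 0.0906. Among genes of 2000 bases or more, the medians were -0.0483 with TOXdeltaN and -0.0269 with TOXFL. The 10 members of this length had medians above 0, of 0.105 and 0.0404, which depend on the transcript chosen for each gene. They included Atp5g1 (4715 bases) and Ndufab1 (3479 bases), whose annotated transcripts were long for a small coding part. Over the 85 members, Spearman's rho between fold change and length was -0.481 with TOXdeltaN and -0.113 with TOXFL, as a description over genes that share the same libraries. When a length trend per library was removed, the median of the 85 became 0.0369 for the mean of both constructs, 0.0361 with TOXFL and 0.0517 with TOXdeltaN, with 59, 55 and 64 genes above 0. The median deviation of TOXdeltaN-positive replicate 2 became 0.0482. After this correction the blocked fit called 3 members higher, Cox7a2, Uqcr10 and Ndufab1, while it called 6.35% of all genes higher. With GC content also corrected it called 5, with 6.8% of all genes, and with the length taken over all exons of the gene 4, with 6.18%. With no filter on low counts and no correction, edgeR called 10, with 3.27% of all genes, and 2 with TOXdeltaN, with 0.855% of all genes. On the corrected scale the 4 GFP-positive libraries lay above the 4 GFP-negative ones for 15 members (8.25% of all genes) and below them for 3 (6.83% of all genes), namely Cox7a2l, Ndufa6 and Uqcrb. RNA integrity was not tested, and a technical part in the length trend was not tested.

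**Figure D3:**
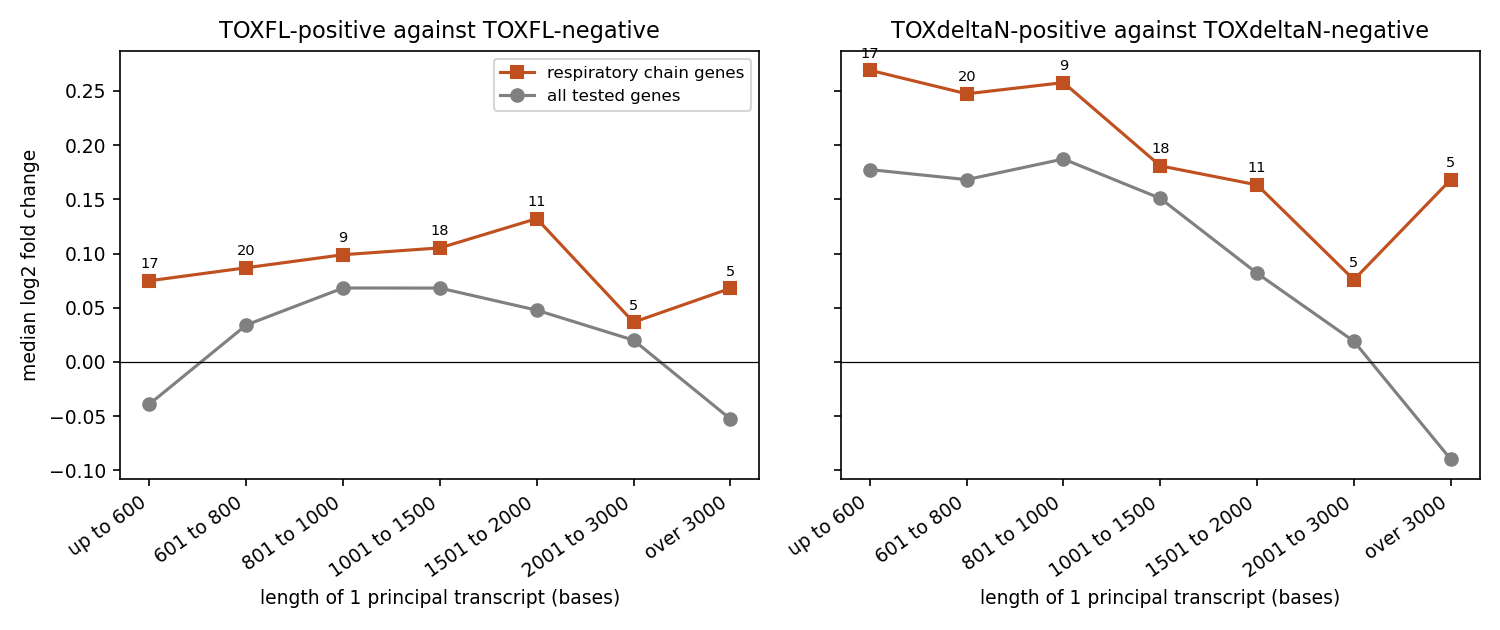
Median log2 fold change (vertical axis) of respiratory chain genes and of all tested genes in bins of principal transcript length (horizontal axis, bases), for each construct, with the number of respiratory chain genes at each point. With TOXdeltaN, genes of up to 600 bases have medians of 0.269 for the chain and 0.177 for all genes, and with TOXFL 0.0749 and -0.0388.

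In complex I, 34 of 36 subunits had a mean fold change above 0, with a median of 0.165. The blocked fit called 7 of them. After the transcript-length correction 23 of the 36 were above 0 with TOXFL and 27 with TOXdeltaN. Ndufv1, which carries the flavin that takes electrons from NADH, had 190.3 and 203 CPM in TOXFL-positive cells against 169 and 172 CPM in TOXFL-negative cells, and 193 and 225 CPM in TOXdeltaN-positive cells against 176 and 181 CPM in TOXdeltaN-negative cells. All 4 GFP-positive libraries lay above the 4 GFP-negative ones. Its mean log2 fold change was 0.22 (SE 0.07, adjusted p = 0.117, and adjusted p = 0.0389 with the block). Ndufs3, an iron-sulfur-arm core subunit, had 90.3 and 100.4 CPM in TOXFL-positive cells against 82.0 and 84.4 CPM in TOXFL-negative cells, and 97.2 and 111 CPM in TOXdeltaN-positive cells against 87.5 and 88.3 CPM in TOXdeltaN-negative cells. Here too the groups did not overlap, with a mean log2 fold change of 0.22 (SE 0.07, adjusted p = 0.122, and 0.0425 with the block).

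Not all core subunits of complex I behaved in this way. Ndufs1, the largest core subunit, which holds several iron-sulfur clusters, had 144 and 155 CPM in TOXFL-positive cells against 146 and 149.5 CPM in TOXFL-negative cells, and 148 and 142 CPM in TOXdeltaN-positive cells against 143 and 153 CPM in TOXdeltaN-negative cells. All groups overlapped, and its mean log2 fold change was -0.01 (SE 0.06). Ndufs7, which lies close to the coenzyme Q site, had a mean log2 fold change of 0.09, and Ndufv2 and Ndufs8 of 0.19 and 0.18, none of them called. Ndufs8 was nevertheless like Ndufv1 and Ndufs3 in that all its GFP-positive libraries lay above all its GFP-negative ones.

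The accessory subunits of complex I, which surround the core and are needed for its assembly and stability, numbered 29 and had a median of 0.162. Ndufc1 had 56.7 and 54.95 CPM in TOXFL-positive cells against 46.0 and 47.8 CPM in TOXFL-negative cells, and 59.98 and 72.0 CPM in TOXdeltaN-positive cells against 50.8 and 54.8 CPM in TOXdeltaN-negative cells. The GFP-positive libraries were higher in all 4, and the mean log2 fold change was 0.29 (SE 0.08, adjusted p = 0.0845, and 0.0263 with the block). Ndufb8 had 136 and 144 CPM in TOXFL-positive cells against 119 and 119 CPM in TOXFL-negative cells, and 139 and 179 CPM in TOXdeltaN-positive cells against 123 and 136 CPM in TOXdeltaN-negative cells. Ndufab1 had 112 and 112 CPM in TOXFL-positive cells against 93.2 and 102 CPM in TOXFL-negative cells, and 111 and 137 CPM in TOXdeltaN-positive cells against 98.3 and 113 CPM in TOXdeltaN-negative cells. With the block Ndufab1 had an adjusted p of 0.0556, and of 0.0353 with the block and the transcript-length correction, which rests on its annotated length of 3479 bases. Ndufa6 had a mean log2 fold change of -0.01 before and -0.14 after the length correction, and its TOXFL-positive replicate 2 value of 49.5 CPM was the lowest of the 8.

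Among the 8 assembly factors, Ndufaf2 was called with the block. It had 13.03 and 12.6 CPM in TOXFL-positive cells against 9.62 and 11.2 CPM in TOXFL-negative cells, and 12.8 and 16.4 CPM in TOXdeltaN-positive cells against 10.54 and 11.5 CPM in TOXdeltaN-negative cells. Its log2 fold change of 0.35 (SE 0.12, adjusted p = 0.128, and 0.0485 with the block) was the highest of the 85. Ndufaf4 (-0.01) and Ndufaf8 (0.03) were near 0.

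In complex II none of the 4 subunits was called, and differences among them were not tested. The catalytic flavoprotein Sdha had 472 and 475 CPM in TOXFL-positive cells against 466 and 481 CPM in TOXFL-negative cells, and 457 and 432 CPM in TOXdeltaN-positive cells against 482 and 465 CPM in TOXdeltaN-negative cells. Both TOXdeltaN-positive libraries lay below both TOXdeltaN-negative ones, the only member with this order in that comparison (20.8% of all genes had it), and the log2 fold change was -0.09 (SE 0.08) with TOXdeltaN and 0.00 (SE 0.08) with TOXFL, not called in either. Sdhb, the iron-sulfur subunit, and the membrane anchors Sdhc and Sdhd, which bind coenzyme Q with it, had mean log2 fold changes of 0.16, 0.15 and 0.14. Sdhd had 212 and 216 CPM in TOXFL-positive cells against 190.0 and 195 CPM in TOXFL-negative cells, and 213 and 242 CPM in TOXdeltaN-positive cells against 203 and 210.3 CPM in TOXdeltaN-negative cells. For Sdhc and Sdhd the 4 GFP-positive libraries lay above the 4 GFP-negative ones, although neither was called. After the transcript-length correction the log2 fold changes with TOXdeltaN were -0.07 for Sdha, 0.01 for Sdhb, 0.17 for Sdhc and -0.01 for Sdhd. The corrected Sdhc value rests on its annotated length of 3171 bases.

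In complex III all 8 subunits had a mean fold change above 0, with a median of 0.15, and the 2 called with the block were small accessory subunits. After the transcript-length correction 5 of the 8 were above 0 with TOXFL and 6 with TOXdeltaN. Uqcrq had 149 and 137 CPM in TOXFL-positive cells against 121 and 125 CPM in TOXFL-negative cells, and 151 and 203 CPM in TOXdeltaN-positive cells against 122 and 141 CPM in TOXdeltaN-negative cells. The GFP-positive libraries were higher within each construct, and the log2 fold change of 0.43 with TOXdeltaN (SE 0.14) was the largest of the 85 in that comparison. The mean log2 fold change of Uqcrq was 0.32 (SE 0.10, adjusted p = 0.11, and 0.0343 with the block). Uqcr10 had 138 and 122 CPM in TOXFL-positive cells against 103 and 113 CPM in TOXFL-negative cells, and 133 and 181 CPM in TOXdeltaN-positive cells against 115 and 129 CPM in TOXdeltaN-negative cells. The Rieske iron-sulfur protein Uqcrfs1, which passes electrons to cytochrome c1, had a mean log2 fold change of 0.10, and the core proteins Uqcrc1 and Uqcrc2 of 0.16 and 0.04, none of them called.

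In complex IV all 12 genes had a mean fold change above 0, with a median of 0.156. After the transcript-length correction 8 of the 12 were above 0 with TOXFL and 10 with TOXdeltaN. Cox7a2 (ENSMUSG00000032330.7) lies on the minus strand of chromosome 9 (GRCm38, 79755361 to 79759878). Cox7a2 had 165 and 155 CPM in TOXFL-positive cells against 128 and 138 CPM in TOXFL-negative cells, and 168 and 210.4 CPM in TOXdeltaN-positive cells against 132 and 156 CPM in TOXdeltaN-negative cells. The groups did not overlap within either construct, but TOXFL-positive replicate 2 lay just under TOXdeltaN-negative replicate 2. Its mean log2 fold change was 0.33 (SE 0.09), with an adjusted p of 0.0849 without the block, 0.0174 with it, 0.0206 with the block and the transcript-length correction, and 0.0128 with DESeq2. Its relative Cox7a2l is known as a factor for supercomplexes of complexes III and IV, a role not examined in these cells. Cox7a2l had 95.4 and 85.6 CPM in TOXFL-positive cells against 95.2 and 94.4 CPM in TOXFL-negative cells, and 97.4 and 113 CPM in TOXdeltaN-positive cells against 99.7 and 99.2 CPM in TOXdeltaN-negative cells. The Cox7a2l groups overlapped, with a mean log2 fold change of 0.01 (SE 0.07) before and -0.12 after the length correction. Cox4i1 had 349.8 and 324 CPM in TOXFL-positive cells against 301 and 337 CPM in TOXFL-negative cells, and 349 and 479 CPM in TOXdeltaN-positive cells against 323 and 352 CPM in TOXdeltaN-negative cells, so its groups overlapped in both constructs. The other complex IV members, Cox5a, Cox5b, Cox6a1, Cox6b1, Cox6c, Cox7b, Cox7c, Cox8a and Ndufa4, had mean log2 fold changes from 0.12 to 0.25, none called.

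In complex V all 17 genes had a mean fold change above 0, with a median of 0.134. After the transcript-length correction 11 of the 17 were above 0 with TOXFL and 14 with TOXdeltaN. Atp5o, the stalk subunit that couples F1 to the membrane part, had 192 and 186 CPM in TOXFL-positive cells against 165 and 169.7 CPM in TOXFL-negative cells, and 198 and 237 CPM in TOXdeltaN-positive cells against 173 and 183 CPM in TOXdeltaN-negative cells. All 4 GFP-positive libraries lay above the GFP-negative ones, with a mean log2 fold change of 0.23 (SE 0.07, adjusted p = 0.112, and 0.0404 with the block). Atp5b had 1637 and 1731 CPM in TOXFL-positive cells against 1464 and 1566 CPM in TOXFL-negative cells, and 1652 and 1887 CPM in TOXdeltaN-positive cells against 1579 and 1703 CPM in TOXdeltaN-negative cells. Its TOXdeltaN groups overlapped, and its mean log2 fold change was 0.13 (SE 0.06). The genes for subunit c, which encode the same mature protein behind different import sequences, differed among themselves. Atp5g3 had log2 fold changes of 0.17 with TOXFL and 0.22 with TOXdeltaN, Atp5g1 of 0.00 and 0.17, and Atp5g2 of -0.08 and 0.21. Atp5g2 had 156 and 122 CPM in TOXFL-positive cells against 142 and 152 CPM in TOXFL-negative cells, and 179 and 194 CPM in TOXdeltaN-positive cells against 163 and 161 CPM in TOXdeltaN-negative cells. The TOXFL groups of Atp5g2 overlapped and the TOXdeltaN groups did not, but the difference between the constructs was not called. The 5 accessory subunits of the membrane part (Atp5j2, Atp5k, Atp5l, Atp5md and Atp5mpl) had a median of 0.282 with TOXdeltaN and 0.0764 with TOXFL. Their TOXFL effect minus the TOXdeltaN effect had a median of -0.208. That difference became -0.043 with the transcript-length correction and -0.0687 without TOXdeltaN-positive replicate 2.

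**Figure D4:**
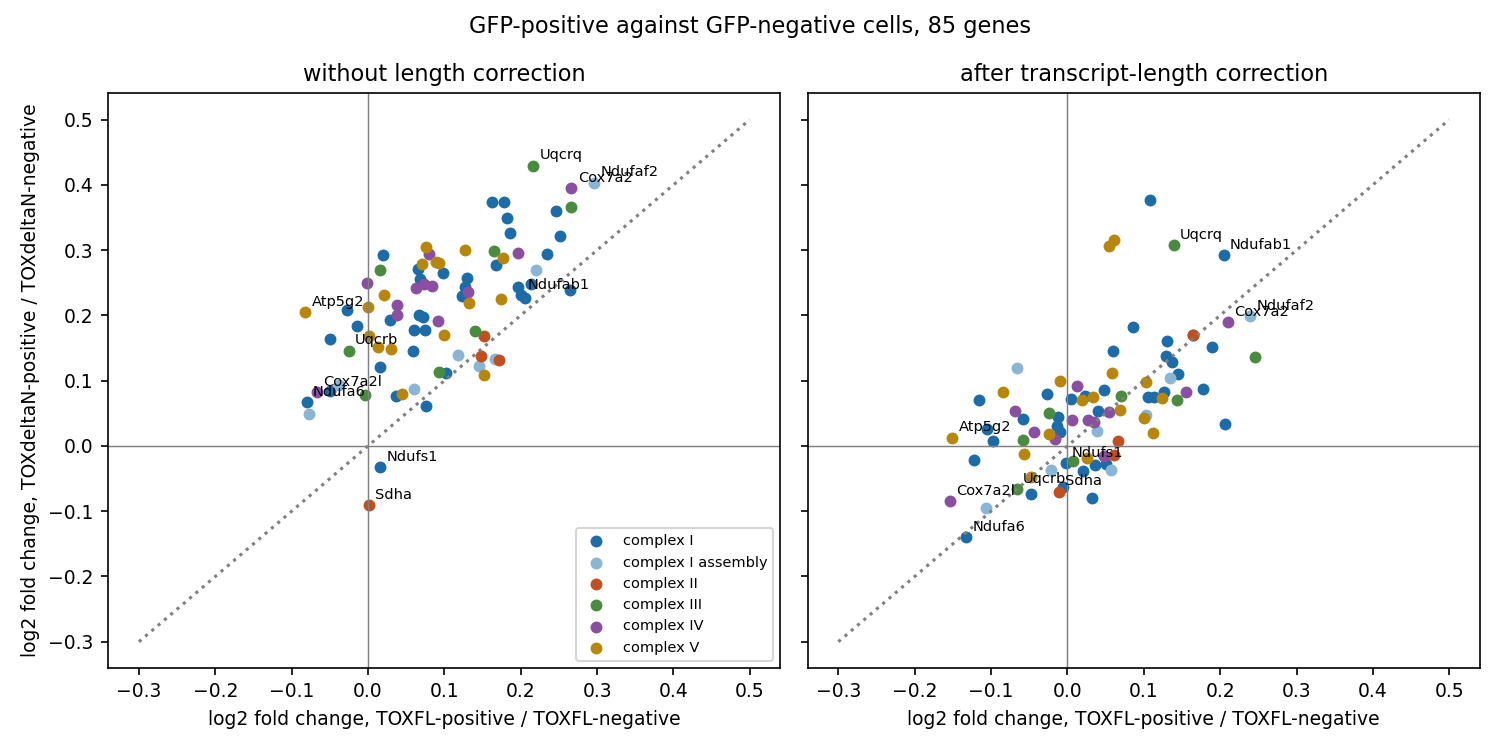
Log2 fold change of GFP-positive over GFP-negative cells with TOXFL (horizontal axis) and with TOXdeltaN (vertical axis) for the 85 genes, coloured by complex, without (left) and with (right) a transcript-length correction. Most points lie above the dotted line of equal change on the left (76 of 85), and on the right 45 do.

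Likeness between the complexes was not tested. Without correction their medians lay between 0.131 and 0.165 for the mean of both constructs, between 0.0764 and 0.15 with TOXFL and between 0.128 and 0.243 with TOXdeltaN. Complex II had a lower median with TOXdeltaN (0.134) than with TOXFL (0.15), and the complex I assembly factors were close (0.128 and 0.132). Without TOXdeltaN-positive replicate 2, complex I (0.0809 with TOXdeltaN and 0.0868 with TOXFL) and complex III (0.0582 and 0.116) also had lower medians with TOXdeltaN. With the transcript-length correction the medians for the mean of both constructs lay between 0.0281 and 0.0547, and those with TOXdeltaN between -0.00305 for complex II and 0.0715 for complex I. Members with the NRF1 letters in their promoter had a median log2 fold change of 0.161 for the mean of both constructs, against 0.142 for members with a promoter and without them, and 0.0497 against 0.0307 after the length correction. Those with the YY1 letters had 0.085, against 0.16 without them, and -0.0225 against 0.0388 after the length correction. Those with the ETS letters had 0.142, against 0.152 without them, and 0.0157 against 0.0358 after the correction. None of these differences was tested.

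Between the constructs, no member was called in TOXFL-positive against TOXdeltaN-positive cells. The median log2 difference was -0.215, with only Sdha, Ndufs1 and Ndufaf7 above 0, and it became -0.0347 after the transcript-length correction and -0.0695 without TOXdeltaN-positive replicate 2. The lowest adjusted p was 0.822, and edgeR called 0 of all genes, with 23 members under an unadjusted p of 0.05. The share of all genes under that unadjusted p is not reported here. The TOXFL-positive libraries lay below the TOXdeltaN-positive ones for 46 members (16.1% of all genes). In TOXFL-negative against TOXdeltaN-negative cells the median was -0.0842, with 46 members lower without overlap (16.6% of all genes), and after the length correction -0.0288, with 25 (15.7%). Here 0 members and 0 genes were called, with 0 members under an unadjusted p of 0.05 (2.46% of all genes). The TOXFL effect minus the TOXdeltaN effect had a median of -0.119, with 9 members above 0 and 0 called. An unadjusted p under 0.05 was found for 0 members (2.39% of all genes). DESeq2 called 0 members in these 3 comparisons, as did the blocked fit, in which 0.0075% of all genes were called between the GFP-positive groups and 0 in the other 2. The difference of effects became -0.00573 after the transcript-length correction and 0.0186 without TOXdeltaN-positive replicate 2. TOXdeltaN-positive replicate 2 is the only library of its group once replicate 1 is left out. Counts called in that fit are a description only, not evidence of a difference. Without TOXdeltaN-positive replicate 1, 18 members were called lower in TOXFL-positive than in TOXdeltaN-positive cells (1.41% of all genes), and 52 with the block (5.48%).

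The 13 mitochondrially encoded protein genes, which supply core subunits of complexes I, III, IV and V, summed to 7069 and 4414 CPM in TOXFL-positive cells against 8297 and 8375 CPM in TOXFL-negative cells, and to 7689.7 and 7988 CPM in TOXdeltaN-positive cells against 9192 and 8972 CPM in TOXdeltaN-negative cells. The 4 GFP-positive libraries were thus below the 4 GFP-negative ones, with TOXFL-positive replicate 2 the lowest. The 85 nuclear genes summed to 14579.9 and 14046 CPM in TOXFL-positive cells against 13117 and 13719 CPM in TOXFL-negative cells, and to 14890.4 and 17467 CPM in TOXdeltaN-positive cells against 13878 and 14599 CPM in TOXdeltaN-negative cells. The median log2 fold change of the 13 mitochondrial genes was -0.351 for the mean of both constructs, -0.513 with TOXFL and -0.196 with TOXdeltaN. Counts called after leaving out 1 library are again a description only, because that library's group then holds 1 library. Without the block 0 were called, and with it 6 were called lower for the mean of both constructs (mt-Atp6, mt-Atp8, mt-Co1, mt-Cytb, mt-Nd4l and mt-Nd5; 6.69% of all genes were called lower) and 1 with TOXFL (1.97%). Without TOXFL-positive replicate 2 the mean of both constructs had a median of -0.218 and the TOXFL comparison -0.187, and the blocked fit called 5 lower for the mean (3.98% of all genes). With the block and the transcript-length correction the counts called lower were 11 for the mean (5.71% of all genes), 10 with TOXFL (2.36%) and 3 with TOXdeltaN (1.13%). With the block and without TOXdeltaN-positive replicate 2 they were 11 (7.59%), 12 (7.03%) and 0 (0.882%).

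**Figure D5:**
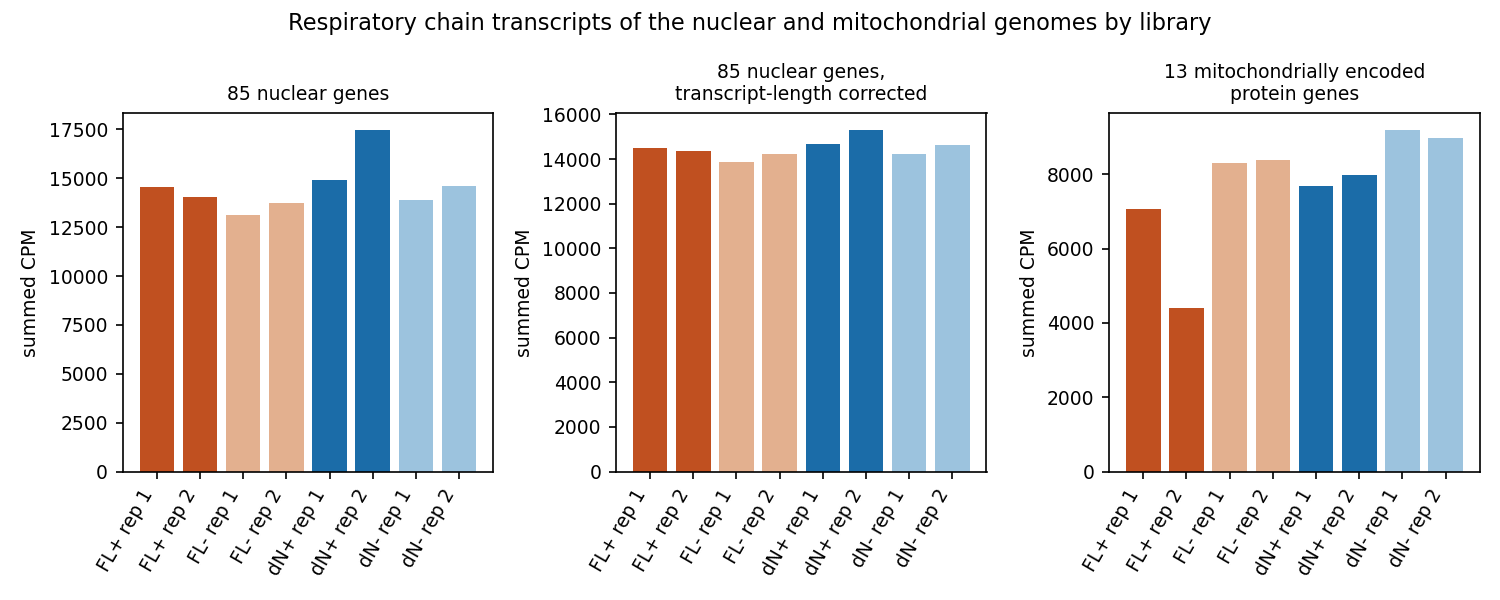
Summed TMM-scaled CPM per library (bars from 0) of the 85 nuclear genes, of the same genes after the transcript-length correction, and of the 13 mitochondrially encoded protein genes, for TOXFL (FL) and TOXdeltaN (dN) cultures by GFP status (+ and -). The nuclear sums lie between 13117 and 17467 CPM and the mitochondrial sums between 4414 and 9192 CPM.

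Other genes of the pathway were read from lists outside the prefixes. Of 4 further chain components, cytochrome c1 (Cyc1), which passes electrons from the Rieske protein to cytochrome c, and Atpif1, an inhibitor of ATP synthase running in reverse, were called higher for the mean of both constructs with the block, with log2 fold changes of 0.29 and 0.30 (adjusted p = 0.0154 and adjusted p = 0.0211). In that fit 6.04% of all genes were called higher. Cyc1 and Atpif1 kept an adjusted p under 0.05 with the length correction as well (0.022 and 0.0444), where 6.35% of all genes were called higher. Of 47 further assembly factors, Sdhaf1, which helps insert iron-sulfur clusters into complex II, and Cmc2, a complex IV assembly factor, were called higher without the block for the mean of both constructs, with log2 fold changes of 0.48 (SE 0.09) and 0.41 (SE 0.08) and adjusted p = 0.0339 for each. That unblocked test called 2.42% of all genes in either direction. The block, with 6.04% of all genes called higher, added Uqcc2, a complex III assembly factor (0.34, adjusted p = 0.0129), and Cox17, a copper chaperone of complex IV (0.29, adjusted p = 0.0347). With the length correction added, Higd2a of complex IV assembly was called lower (-0.21, adjusted p = 0.043), with 5.71% of all genes called lower. None of the 11 complex I and 3 complex V assembly factors outside the prefixes was called.

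Of 13 coenzyme Q synthesis genes, Coq7 (0.35) and Pdss1 (0.29) were called higher with the block (6.04% of all genes) and neither with the length correction added. None of 17 genes for pyruvate dehydrogenase and the tricarboxylic acid cycle was called in any of the 3 comparisons of GFP-positive with GFP-negative cells, without or with the block. Of 15 regulators of mitochondrial biogenesis, Gabpb2 (-0.42, adjusted p = 0.00431) and the coactivator Ppargc1b (-0.36, adjusted p = 0.0383) were called lower with the block for the mean of both constructs (6.69% of all genes). With the length correction added, Ppargc1b and Myc were called lower and Gabpb2 was not (adjusted p = 0.0522), while Nrf1 (0.13) and the mitochondrial DNA factor Tfam (0.08) were not called. Of 19 glycolysis genes, 6 were called higher with the block for the same mean (6.04% of all genes), namely Ldha, Pgam1, Pgk1, Pkm, Slc16a3 and Tpi1, with log2 fold changes from 0.19 for Pkm to 0.34 for Slc16a3, and these 6 were also called with the length correction. Without the block none of the coenzyme Q, biogenesis or glycolysis genes was called.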

How the data were processed

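Expected counts per gene from 8 libraries were used as deposited by the authors, who gave them as whole numbers. Per the labels' protocols, libraries were made from 8 ng of total RNA with SMART-Seq v4 and Nextera XT, which do not mark strand. The submitters' processing notes name bcl2fastq 2.20, cutadapt, STAR 2.6.1, RSEM 1.2.28 and GRCm38. The annotation release and the rounding step are not given in the sources used here. RSEM divides reads shared by near-identical copies, and respiratory chain genes have many pseudogenes, so such counts are estimates.

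From these counts, edgeR 4.0.16 (R 4.3.3) was run with TMM scaling, filterByExpr and a quasi-likelihood test on group means over all 8 libraries, with Benjamini-Hochberg adjustment over 13329 genes and a threshold of 0.05. SE values are the fold change divided by the square root of F. Scaling of all genes left a median fold change near 0. The steps were tested on simulated data with larger fold changes, less spread between libraries and no effect of replicate number. That test therefore does not cover changes as small as those seen here. Libraries with the same replicate number had deviations that correlated at 0.152 to 0.228 in every pair of groups, so the numbers were treated as pairs, a reading from the data and not the labels. Alternatives were other size factors, no filter, DESeq2 1.42.0, fits of the compared groups alone, the replicate block, length corrections and leaving out each library. Corrections by principal transcript length (GENCODE M21) and GC content, and blocked fits without a library, were chosen after seeing the data. Genes named were the core and catalytic subunits by role, tissue isoform pairs, the 5 members with the lowest unadjusted p in each direction per comparison, every member called with or without the block, and called genes of the pathway lists. Ndufaf8, Cox7b, Uqcrb and the accessory subunits of the complex V membrane part were named after their values were seen. Not every gene under this rule is reported here. The members, lists and tests were chosen with earlier results of these data known. Depth was 25059112 to 31240067 counts per library.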

Additional observations from a re-analysis of the deposited data

How the results depend on the processing

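The number of members called for the mean of both constructs was 0 in the unblocked edgeR test, 12 with the replicate block, 4 with the block and gene-length correction, 3 with the block and transcript-length correction, 5 with GC content added, 6 with DESeq2 and 10 without a filter, which also called 2 with TOXdeltaN. Each fit without 1 library leaves 1 library in a group, so the ranges that follow are a description and not evidence of a difference. Leaving out 1 library without the block gave 0 to 34 called members for that mean, 0 to 31 with TOXdeltaN and 0 to 18 between the GFP-positive groups. With the block the ranges were 0 to 60 (10 without TOXFL-positive replicate 2 and 11 without TOXdeltaN-positive replicate 2), 0 to 55 and 0 to 52 (1 without TOXFL-positive replicate 1), and 0 to 7 with TOXFL.

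The median log2 fold change of 0.218 with TOXdeltaN became 0.0869 with the gene-length correction (0.0867 with the block), 0.0517 with the transcript-length correction, 0.0531 with GC added, and 0.0515 and 0.0529 for these with the block. For the mean of both constructs, 0.152 became 0.0369, 0.0436, 0.0385 and 0.045 under the same 4. The difference between the GFP-positive groups became -0.0831 with gene length (-0.0832 with the block), and -0.0347, -0.0354, -0.034 and -0.0371 under the 4. The difference of effects became -0.00573, -0.0042, -0.00502 and -0.00463.

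Without 1 library and without the block, medians were 0.0858 to 0.329 with TOXdeltaN, -0.248 to 0.0186 for the difference of effects and -0.331 to -0.0695 between the GFP-positive groups. With the block and without TOXFL-positive replicate 1, TOXFL-positive replicate 2, TOXdeltaN-positive replicate 1 or TOXdeltaN-positive replicate 2, in this order, the difference of effects was -0.248, -0.00637, -0.24 and 0.00382 and that between the GFP-positive groups -0.3265, -0.0977, -0.327 and -0.0772. The TOXFL median was -0.0141 and 0.2001 without its positive replicate 1 or 2, and the TOXdeltaN median 0.329 and 0.0956 without its own. The cause was not tested. The SD between replicates in the members' median, pooled over the groups, was 0.1 (log2). The TOXdeltaN-positive pair, with median deviations of 0.0589 and 0.303, added most to it. With 2 libraries a group, changes of the size seen were near this pooled spread between libraries.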
